A study of Mus musculus with 18 samples.

Results

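Gene expression in dermal papilla cells was compared between adrenalectomised and sham-operated mice by RNA-seq. The comparison rests on 4 of the 18 libraries of the series, 2 per group, and on all 23463 of 52958 genes that passed a filter on low counts. The Sham group consisted of wild type female C57BL/6 mice after a sham operation, and the ADX group of wild type female C57BL/6 mice whose adrenal glands had been removed. A further 4 dermal papilla libraries of the series, 2 from Control and 2 from GR KO mice, were fitted in the same model and are used below as a second experiment. Control and GR KO mice were female, of a 129/C57BL/6 background, and received tamoxifen intraperitoneally for 6 days. GR KO mice carried Pdgfra-CreER and GR fl/fl alleles, so that the gene for the glucocorticoid receptor is deleted in cells with an active Pdgfra promoter, whereas Control mice were wild type. All cells were purified by fluorescence-activated sorting. The labels give neither the ages nor the time since surgery, and do not say whether a library came from 1 mouse or from pooled mice, so p-values measure only the spread between these libraries, which may be technical.

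The dermal papilla is a cluster of specialised fibroblasts at the base of the hair follicle that instructs the follicle's stem cells through secreted WNT, FGF, BMP and other signals. The adrenal cortex makes corticosterone, the main glucocorticoid of the mouse, and aldosterone, a mineralocorticoid that controls sodium transport. Glucocorticoids bind the glucocorticoid receptor (GR, encoded by Nr3c1), a transcription factor that moves into the nucleus and switches on genes such as Fkbp5, Tsc22d3 and Per1. According to the series title, the question was how corticosterone acts on Gas6, a secreted ligand, and on stem cell quiescence.

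The libraries differed in depth and composition. The Sham libraries held 11425379 and 11329227 counts assigned to genes and the ADX libraries 6194415 and 7784320. Reads of protein-coding genes made up 93.6% and 90.4% of the Sham counts and 85.8% and 86.9% of the ADX counts, and 27093 and 32511 genes had at least 1 count in Sham against 33638 and 32048 in ADX. Replicates correlated with a Pearson r of 0.920 in Sham and 0.921 in ADX (log2 of CPM + 1, across genes, where CPM is the read count scaled to library size), against 0.975 in Control and 0.960 in GR KO. Xist, which is expressed from the inactive X chromosome of females, was at 278 to 566 CPM in all 8 libraries. Genes of chromosome Y summed to 362 and 349 CPM in Sham, 503 and 677 CPM in ADX and 70.6 to 122 CPM in Control and GR KO. The part of depth, composition and chromosome Y reads in the results below was not tested.

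Markers of the labelled cell type were present. All 23 genes of a dermal papilla list, which includes Sox18, were tested, and their summed level was 8850 and 4792 CPM in Sham and 4865 and 8838 CPM in ADX, so that the groups overlapped. Of these genes, 14 had a higher and 9 a lower value in ADX, with a median log2 fold change of 0.21 that became −0.04 without Sham replicate 2 and −0.39 without ADX replicate 2. Corin, a protease that marks the papilla, stood at 10.3 and 9.66 CPM in Sham and 28.6 and 41.8 CPM in ADX. Vcan, the proteoglycan versican of the papilla, stood at 120.3 and 80.8 CPM in Sham and 209 and 162 CPM in ADX, and Fgf10, a papilla growth factor, at 181 and 107 CPM in Sham and 68.9 and 90.6 CPM in ADX. In bulk samples, fewer cells of a type and less RNA per cell cannot be told apart.

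In edgeR's quasi-likelihood test, 4 of 23463 genes passed the threshold of 0.05 on the adjusted p, which is 0.017% of the genes tested. Sox18, Ramp3 and Scnn1g rose and Aldh1a1 fell. At an unadjusted p under 0.05 edgeR had 2737 genes (11.7%), of which 980 were higher and 1757 lower. DESeq2 called 453 of 20505 genes at an adjusted p under 0.05, with 192 higher (0.936%) and 261 lower (1.27%). Both ADX libraries lay above both Sham libraries for 23.9% of all genes and below them for 19.4%. Among protein-coding genes alone these shares were 18.2% and 24.9%. The median log2 fold change was 0.08 over all genes tested and −0.09 over the protein-coding ones, which moved to 0.05 when protein-coding genes were scaled alone. All counts of gene groups below are to be read against these shares.

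Sox18 encodes a transcription factor of the SoxF family, known from endothelium and dermal papilla. It stood at 20.4 and 15.8 CPM in Sham and 188 and 185 CPM in ADX, and both ADX libraries lay far above both Sham libraries. The gene rose by 3.37 on the log2 scale (SE 0.29, edgeR adjusted p = 0.00923). It lies on chromosome 2, 181669836 to 181671640 of GRCm38, minus strand, and has a single annotated transcript, which is protein-coding. Without Sham replicate 2 the edgeR adjusted p was 0.0593, and in a fit of only the Sham and ADX libraries it was 0.0792, within a range of 1.53e-19 to 0.0792 over all alternatives. Its relatives on the list of SoxF factors and partners did not pass the test. Sox17 had 84 reads in Sham and 3 in ADX, nearly all of the former in Sham replicate 1 (7.32 and 0 CPM in Sham and 0 and 0.351 CPM in ADX), which is a ratio of ADX to Sham of 0.0543 (95% counting interval 0.0110 to 0.164). Sox7 had 1 read in Sham and 7 in ADX, a ratio of 10.6 (95% counting interval 1.37 to 479). Mef2c, a MADS-box partner of Sox18, stood at 159.8 and 76.1 CPM in Sham and 234 and 95.5 CPM in ADX, with overlapping groups.

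Ramp3 encodes a receptor activity-modifying protein, a membrane partner that turns the calcitonin receptor-like receptor Calcrl into a receptor for adrenomedullin. It stood at 22.5 and 21.7 CPM in Sham and 238 and 430.5 CPM in ADX, with ADX replicate 2 the highest of the 8 dermal papilla libraries. The gene rose by 3.92 (SE 0.38, edgeR adjusted p = 0.0145). It lies on chromosome 11, 6658521 to 6677475 of GRCm38, plus strand. Of its counts, 95.4% to 100% were assigned to the protein-coding transcript Ramp3-201 in each of the 4 libraries. The edgeR adjusted p was 0.0833 without Sham replicate 1, 0.0760 without Sham replicate 2 and 0.0792 in a fit of only the Sham and ADX libraries, within a range of 1.16e-22 to 0.0833. Of the 10 tested genes of the family and its ligands, Ramp3 was the sole one past the edgeR threshold. Calcrl stood at 37.5 and 48.9 CPM in Sham and 17.8 and 22.3 CPM in ADX (log2 fold change −1.11, edgeR adjusted p = 0.271). Its ligand adrenomedullin (Adm) stood at 27.2 and 48.3 CPM in Sham and 15.3 and 13 CPM in ADX (log2 fold change −1.42). Ramp1, which makes the same receptor bind the peptide CGRP, stood at 25.4 and 26.7 CPM in Sham and 177 and 51.2 CPM in ADX, and DESeq2 called it (adjusted p = 0.0126, edgeR adjusted p = 0.276). Ramp2, the other partner for adrenomedullin, stood at 121 and 117 CPM in Sham and 65.6 and 114 CPM in ADX, with ADX replicate 2 close to the Sham libraries.

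Scnn1g encodes the gamma subunit of the epithelial sodium channel, which kidney cells use to take up sodium under the control of aldosterone. It had 0 and 1 read in the Sham libraries and 139 and 151 reads in the ADX libraries, or 0 and 0.0805 CPM and 19.3 and 17.7 CPM. The ratio of the summed levels was 441, with an exact 95% counting interval of 78.5 to 17460, and the gene rose in the test (edgeR adjusted p = 0.0185). Such intervals cover counting error only, since the reads carry no molecular identifiers. Scnn1g has a single annotated transcript, on chromosome 7, 121734479 to 121768475 of GRCm38, plus strand. The call was lost without Sham replicate 1 (edgeR adjusted p = 0.0644), without Sham replicate 2 (0.0593) and in a fit of only the Sham and ADX libraries (0.163), within a range of 7.65e-13 to 0.163 over the alternatives. The channel's other subunits did not pass. Scnn1a stood at 5.23 and 1.93 CPM in Sham and 0.973 and 0.117 CPM in ADX (edgeR adjusted p = 0.447) and Scnn1b at 0.261 and 4.11 CPM in Sham and 2.50 and 10.4 CPM in ADX (edgeR adjusted p = 0.626). Of the 16 tested genes of sodium transport, 6 had a higher and 9 a lower value, with a median of −0.22. Prss8, a protease that activates the channel in epithelia, had no read in any of the 4 libraries.

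Aldh1a1 encodes a retinaldehyde dehydrogenase, one of the enzymes that make retinoic acid from vitamin A. It stood at 66.3 and 72.3 CPM in Sham and 5.14 and 7.97 CPM in ADX, and both ADX libraries lay below all 6 other dermal papilla libraries. The gene fell by 3.40 (SE 0.36, edgeR adjusted p = 0.0185). It lies on chromosome 19, 20492715 to 20643465 of GRCm38, plus strand, and 86.5% to 98.5% of its counts in a library were assigned to the protein-coding transcript Aldh1a1-201. The edgeR adjusted p was 0.0593 without Sham replicate 2, 0.0662 without ADX replicate 1 and 0.163 in a fit of only the Sham and ADX libraries, within a range of 5.24e-12 to 0.163. Among the 21 tested genes of retinoic acid synthesis, transport and response, 18 had a lower and 3 a higher value, and in 10 both ADX libraries lay below both Sham libraries. Their median was −0.64, or −0.98 without ADX replicate 1. DESeq2 called 3 of them lower. One of these was Cyp26b1, which degrades retinoic acid and stood at 411 and 161 CPM in Sham and 64.8 and 86 CPM in ADX (DESeq2 adjusted p = 0.0225, edgeR adjusted p = 0.264). Rbp4, the retinol carrier of plasma, stood at 3.40 and 12 CPM in Sham and 0.973 and 0.820 CPM in ADX (DESeq2 adjusted p = 0.0262, edgeR adjusted p = 0.250).

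**Figure D1:**
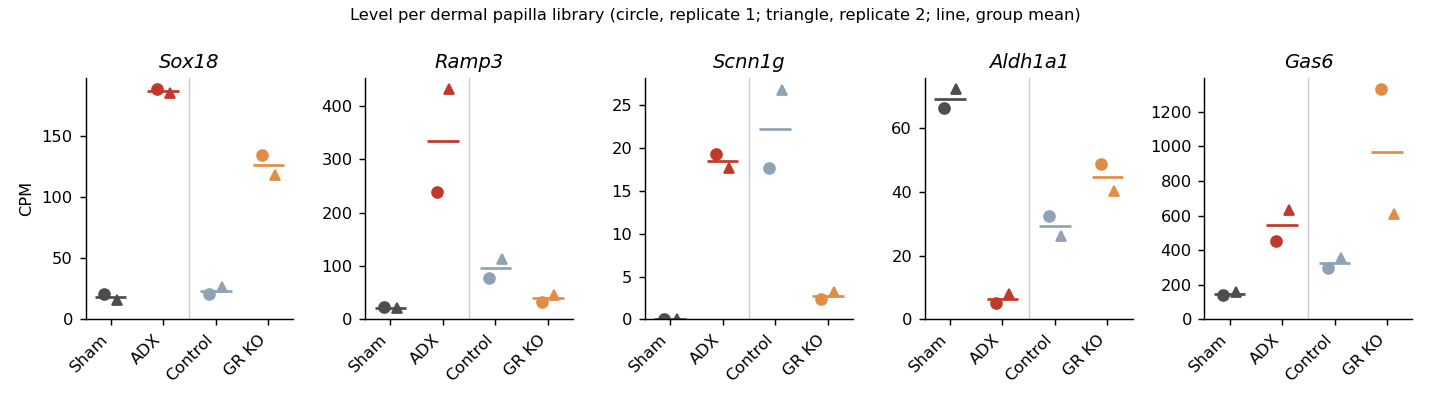
Level in CPM (vertical axis, linear, starting at 0) of the 4 genes past the edgeR threshold and of Gas6 in each of the 8 dermal papilla libraries, by group. Points are libraries and lines group means. Sox18, Ramp3 and Scnn1g are high and Aldh1a1 is low in both ADX libraries relative to both Sham libraries, and Control sits near ADX for Scnn1g and near Sham for Sox18.

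The sequence before the start of these genes is shown because sites for GR and for Sox factors can be looked for there. RefSeq windows on GRCm38.p6, from 250 bases before to 50 bases after the start, were given for 3 of the 4 genes, Sox18 being the gene without one, and for Gas6. The start used is the RefSeq start nearest that of the gene's transcript with the most counts. For Aldh1a1 it lies inside the span of the gene given above, not at its edge. The 250 bases before the start are printed 5′ to 3′ on the strand of the gene, with GC boxes (GGGCGG, or CCGCCC on the other strand) and CCAAT boxes in capitals. The stretches are chr11:6658283-6658532 for Ramp3, chr7:121734229-121734478 for Scnn1g, chr19:20601718-20601967 for Aldh1a1, all on the plus strand, and chr8:13494536-13494785 on the minus strand for Gas6.
Ramp3: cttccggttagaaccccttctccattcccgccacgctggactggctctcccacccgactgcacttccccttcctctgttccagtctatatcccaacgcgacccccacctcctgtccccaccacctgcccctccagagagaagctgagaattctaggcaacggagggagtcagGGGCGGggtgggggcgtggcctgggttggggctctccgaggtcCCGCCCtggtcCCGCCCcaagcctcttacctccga
Scnn1g: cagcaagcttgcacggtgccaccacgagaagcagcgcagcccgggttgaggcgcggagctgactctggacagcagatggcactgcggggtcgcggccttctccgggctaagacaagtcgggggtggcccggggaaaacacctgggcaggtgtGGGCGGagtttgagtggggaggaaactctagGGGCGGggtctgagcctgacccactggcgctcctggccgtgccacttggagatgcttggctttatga
Aldh1a1: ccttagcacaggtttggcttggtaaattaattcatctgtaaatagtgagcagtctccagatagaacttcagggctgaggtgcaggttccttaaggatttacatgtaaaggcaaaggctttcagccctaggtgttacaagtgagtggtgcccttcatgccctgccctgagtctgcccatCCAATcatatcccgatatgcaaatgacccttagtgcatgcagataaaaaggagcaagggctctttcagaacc
Gas6: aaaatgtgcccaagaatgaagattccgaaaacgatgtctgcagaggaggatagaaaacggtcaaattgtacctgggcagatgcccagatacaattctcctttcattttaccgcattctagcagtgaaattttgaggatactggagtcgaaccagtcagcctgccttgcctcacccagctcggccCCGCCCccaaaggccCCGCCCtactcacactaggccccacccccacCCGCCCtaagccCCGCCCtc
Before the start, Ramp3 had 3 GC boxes, Scnn1g 2 and Gas6 4, and none of these had a CCAAT box. Aldh1a1 had 1 CCAAT box and no GC box. Of all 32851 RefSeq windows, 35.7% hold a GC box and 37.4% a CCAAT box, so both are common. No match to the glucocorticoid half-site AGAACA (19% of windows, both strands) or to the Sox core AACAAT (10.7% of windows, both strands) was found in the 4 windows, which says only that these letters are not there.

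Beyond the 4 called genes, a rule named the 12 protein-coding genes per direction with the smallest p among those whose groups did not overlap and whose higher group averaged 5 CPM or more. These 24 genes include the 4. DESeq2 called all 24, and edgeR adjusted p-values of the other 20 were 0.0727 to 0.183. They were chosen by p, so the values that follow describe them.

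Higher genes included ligands and signalling enzymes. Adcy1, an adenylyl cyclase that makes cyclic AMP, stood at 0.436 and 1.61 CPM in Sham and 32.9 and 28.6 CPM in ADX (log2 fold change 4.89, SE 0.69). Edn3, which encodes endothelin 3, a peptide known to act on melanocytes, stood at 4.01 and 13.2 CPM in Sham and 57.1 and 77.9 CPM in ADX (log2 fold change 2.97, SE 0.51). In both genes the ADX libraries lay close together and far above the Sham libraries. Sncb, which encodes beta-synuclein, stood at 3.31 and 3.70 CPM in Sham and 37.9 and 45.1 CPM in ADX (log2 fold change 3.56, SE 0.68), and at 5.99 and 5.11 CPM in Control and 1.30 and 0.238 CPM in GR KO, so that the ADX libraries stood apart from all others. Matn1, which encodes the cartilage matrix protein matrilin 1, had 3 reads in Sham and 211 in ADX, a ratio of 107 (95% counting interval 36.1 to 522). Col11a1, a chain of a fibrillar collagen, stood at 15.2 and 17.5 CPM in Sham and 244 and 50.5 CPM in ADX (log2 fold change 3.17, SE 0.63).

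The remaining higher genes belong to contraction and the cell cycle. Cnn1, which encodes calponin 1 of smooth muscle, stood at 1.66 and 6.60 CPM in Sham and 162 and 44.4 CPM in ADX (log2 fold change 4.63, SE 0.85). Actg2, the smooth muscle gamma actin, stood at 6.71 and 5.64 CPM in Sham and 202 and 31.1 CPM in ADX (log2 fold change 4.24, SE 0.80). Both were higher in ADX replicate 1 than in replicate 2, and Col11a1 shared that order. Pbk, a kinase of dividing cells, had 1 read in Sham and 123 in ADX, a ratio of 187 (95% counting interval 32.9 to 7440). Hist1h2ap, a replication-dependent histone gene, stood at 8.19 and 6.60 CPM in Sham and 77.8 and 24.7 CPM in ADX (log2 fold change 2.79, SE 0.54), a value that is uncertain because histone genes have near-identical copies.

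Lower genes included matrix and surface proteins of fibroblasts. Mmp3, the matrix metalloprotease stromelysin 1, stood at 317 and 549 CPM in Sham and 10.6 and 34.7 CPM in ADX (log2 fold change −4.25, SE 0.68). Efemp1, which encodes the matrix protein fibulin 3, stood at 423 and 691 CPM in Sham and 78.2 and 151 CPM in ADX (log2 fold change −2.28, SE 0.37), and Mfap5, a microfibril protein, at 293 and 413 CPM in Sham and 92.3 and 97.1 CPM in ADX (log2 fold change −1.90, SE 0.31). In each of these genes both ADX libraries lay far below both Sham libraries. Fzd1, a WNT receptor, stood at 226 and 215 CPM in Sham and 74.1 and 73.3 CPM in ADX (log2 fold change −1.58, SE 0.25), and Dpep1, a membrane dipeptidase, at 274 and 328 CPM in Sham and 94.9 and 58 CPM in ADX (log2 fold change −1.98, SE 0.30). Gpnmb, a membrane glycoprotein, stood at 82.2 and 83.2 CPM in Sham and 11.5 and 12.3 CPM in ADX (log2 fold change −2.79, SE 0.43).

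Lower genes of immune and metabolic function had similar separation. Ms4a4d, which encodes a membrane protein with several spans, stood at 57.2 and 75.6 CPM in Sham and 12.1 and 10.4 CPM in ADX (log2 fold change −2.56, SE 0.33). Il17rc, a subunit of the interleukin 17 receptor, stood at 53.4 and 64.3 CPM in Sham and 14.2 and 17.3 CPM in ADX (log2 fold change −1.90, SE 0.31). Ifi207, an interferon-inducible gene, stood at 24.1 and 37.4 CPM in Sham and 1.81 and 2.46 CPM in ADX (log2 fold change −3.84, SE 0.53), and Serpina3n, a secreted inhibitor of serine proteases, at 11.7 and 23.5 CPM in Sham and 0.834 and 2.58 CPM in ADX (log2 fold change −3.33, SE 0.55). Ugt1a6a, which conjugates glucuronic acid to small molecules, stood at 81.2 and 84.9 CPM in Sham and 8.06 and 13.7 CPM in ADX (log2 fold change −2.93, SE 0.39). The last 3 belong to families with similar copies, and the Ugt1a genes share exons, so their counts are uncertain.

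The second dermal papilla experiment shows which group stands apart. Among the 12 higher genes, the ADX libraries lay above all 6 others in 5 (Sox18, Ramp3, Adcy1, Sncb and Hist1h2ap), and the Sham libraries lay below all 6 others in 6 (Scnn1g, Matn1, Edn3, Cnn1, Actg2 and Pbk). Col11a1 was in neither class. For example, Scnn1g stood at 17.6 and 26.8 CPM in Control, beside 19.3 and 17.7 CPM in ADX. Among the 12 lower genes, ADX lay below all 6 others in 10 and Sham lay above all 6 others in 2, Mmp3 and Efemp1. Mmp3 stood at 25.9 and 65.3 CPM in Control and 27.2 and 56 CPM in GR KO, so that the Sham libraries were the high ones. Among all 5609 genes with both ADX libraries above both Sham libraries, 3700 had ADX above the other 6 and 721 had Sham below them. Among all 4552 genes with both ADX libraries below, these counts were 2157 with ADX below the other 6 and 930 with Sham above them. The strain and the tamoxifen of Control and GR KO cannot be told apart from the experiment.

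**Figure D2:**
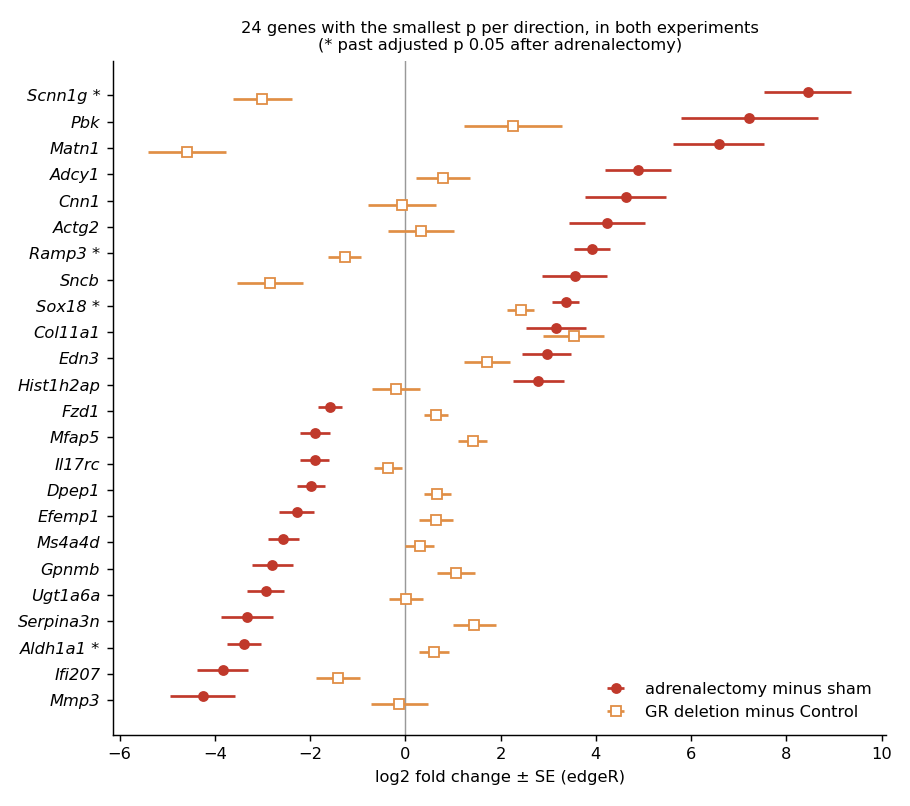
Log2 fold change with its standard error (horizontal axis, edgeR) of the 24 genes named by p, after adrenalectomy (filled circles, ADX minus Sham) and after GR deletion (open squares, GR KO minus Control). Asterisks mark the 4 genes past the threshold after adrenalectomy. Sox18 lies to the right of 0 in both, at 3.37 and 2.42, whereas Ramp3 and Scnn1g lie on opposite sides.

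Genes that glucocorticoids are known to switch on were mostly lower after adrenalectomy. Of 31 such genes, 26 had a lower and 5 a higher value, and both ADX libraries lay below both Sham libraries in 22 (against 24.9% of protein-coding genes). None passed in edgeR, and DESeq2 called 8 lower, namely Mt1, Fkbp5, Klf9, Errfi1, Cebpb, Tsc22d3, Rasd1 and Zbtb16. The median was −0.86, and −0.64 to −1.25 when a library was left out.

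By library, Fkbp5, a chaperone that restrains GR, stood at 159 and 77.5 CPM in Sham and 13.6 and 15.8 CPM in ADX (log2 fold change −3.0, SE 0.52, DESeq2 adjusted p = 4.9e-06, edgeR adjusted p = 0.139). Tsc22d3, the gene of the anti-inflammatory leucine zipper protein GILZ, stood at 897 and 515 CPM in Sham and 189 and 306 CPM in ADX (log2 fold change −1.51). Zbtb16, a zinc finger repressor and sensitive GR target, stood at 32.8 and 16.8 CPM in Sham and 0.973 and 9.26 CPM in ADX (log2 fold change −2.26). Among the Sham and ADX libraries, all of these had the highest values in Sham replicate 1. Klf9, a transcription factor induced by GR, stood at 1052 and 597 CPM in Sham and 215 and 287 CPM in ADX, and Errfi1, an inhibitor of the EGF receptor, at 1014 and 494 CPM in Sham and 146 and 172 CPM in ADX. Mt1, which encodes metallothionein 1, a metal-binding protein, stood at 156 and 138 CPM in Sham and 52.4 and 50.3 CPM in ADX, with replicates of each group close together. Per1, a clock gene that GR also induces, stood at 42.5 and 51.7 CPM in Sham and 24.9 and 28.1 CPM in ADX (log2 fold change −0.83, edgeR adjusted p = 0.320). The DESeq2 adjusted p was 0.00205 for Mt1, 0.0431 for Zbtb16 and 0.328 for Per1. Not all followed this direction. Angptl4, a secreted inhibitor of lipoprotein lipase and textbook GR target, stood at 148 and 143 CPM in Sham and 129 and 205 CPM in ADX, with overlapping groups.

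The same 31 genes can be set beside GR deletion, which shares no library with the adrenalectomy. In GR KO, 25 of them had a lower value, in 23 without overlap (against 21.1% of protein-coding genes), and 11 fell in edgeR (against 0.771% of all genes tested). A lower value in both experiments was found for 21 genes, and 17 had no overlap in either. The median was −1.43 after GR deletion. The difference between both changes passed in edgeR for 1 gene, Angptl4 (difference 2.90, SE 0.41, edgeR adjusted p = 0.0312). It stood at 346 and 302 CPM in Control and 54.9 and 44.8 CPM in GR KO. This call was lost without Sham replicate 1 (0.0536), Sham replicate 2 (0.0822), ADX replicate 2 (0.0541), Control replicate 1 (0.0515) or Control replicate 2 (0.103). A lower value in ADX and a higher one in GR KO was found for 5 genes, Anxa1, Sgk1, Dusp1, Lpin1 and Tgm2, which are named after their values were seen.

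Inflammatory genes that glucocorticoids are known to repress had mostly lower values after adrenalectomy as well. Of 19 tested genes, 13 had a lower and 6 a higher value, 7 and 2 of them without overlap (against 24.9% and 18.2% of protein-coding genes). Their median was −0.44 after adrenalectomy and 2.28 after GR deletion. The median after adrenalectomy was −0.11 without Sham replicate 1 and −0.68 without Sham replicate 2. DESeq2 called 1 after adrenalectomy, Mmp3. Ptgs2, the inducible cyclooxygenase of prostaglandin synthesis, stood at 5.14 and 3.87 CPM in Sham and 0.834 and 0.234 CPM in ADX, and at 0.473 and 0.186 CPM in Control and 23.5 and 5.71 CPM in GR KO. Its difference between both changes was −8.48 (edgeR adjusted p = 0.0463), on few reads in most libraries. It passed without ADX replicate 1 or GR KO replicate 2 and missed the threshold without any of the other 6 libraries (edgeR adjusted p = 0.0581 to 0.219).

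**Figure D3:**
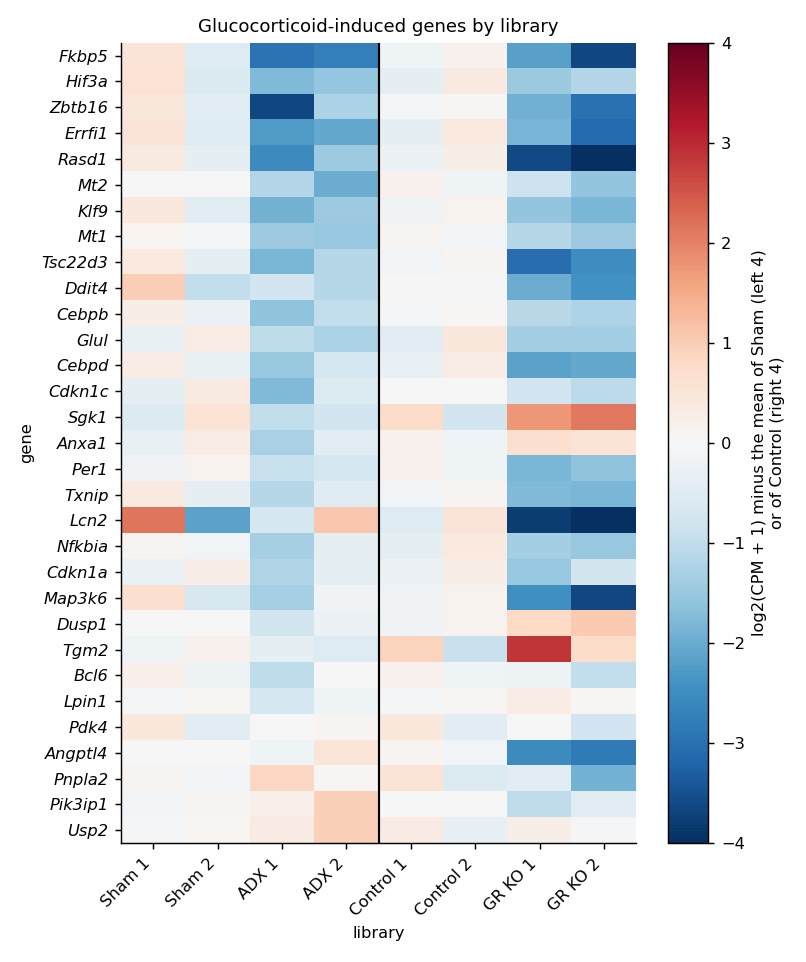
Each row is a glucocorticoid-induced gene and each column a library. Colour gives log2(CPM + 1) minus the mean of Sham for the 4 libraries on the left and minus the mean of Control for the 4 on the right, with blue for lower values. Rows are ordered by the log2 fold change after adrenalectomy, from Fkbp5 (−3.0) at the top, and 21 of the 31 genes have a lower value in both experiments.

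The letters of the GR binding site stand before the start of some of these genes. GR binds as a pair to an inverted repeat of its half-site. The core letters GNACANNNTGTNC, which read alike on both strands and are contained in the palindrome with the half-sites written out (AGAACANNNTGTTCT), occur in 0.475% of all 32851 windows, and the full palindrome in 3 of them. That share is counted per window, whereas a gene counts here if any of its windows holds the core. Of the 31 genes 25 had a window, and 4 of these held the core. They are shown with 20 bases on either side and the core in capitals, from GRCm38.p6, plus strand: Sgk1 at chr10:21993682-21993734, Mt1 at chr8:94178975-94179027, Map3k6 at chr4:133240617-133240669 and Txnip at chr3:96557765-96557817.
Sgk1: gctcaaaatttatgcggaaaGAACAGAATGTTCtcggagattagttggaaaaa
Mt1: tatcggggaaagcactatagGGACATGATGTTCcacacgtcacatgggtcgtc
Map3k6: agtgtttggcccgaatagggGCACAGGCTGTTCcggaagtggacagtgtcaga
Txnip: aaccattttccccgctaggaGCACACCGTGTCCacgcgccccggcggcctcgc
The core begins 188 bases before the start in Sgk1, 94 in Mt1, 181 in Map3k6 and 172 in Txnip, and the one in Sgk1 is the full palindrome. The levels of Mt1 are given above. Txnip, which encodes an inhibitor of thioredoxin, stood at 1164 and 700.5 CPM in Sham and 406.5 and 645.9 CPM in ADX. Map3k6, a kinase of stress signalling, stood at 144.5 and 57.9 CPM in Sham and 35.9 and 82.5 CPM in ADX, so that its groups overlapped. Neither passed in edgeR or DESeq2. Sgk1, the serum- and glucocorticoid-induced kinase, stood at 48 and 102 CPM in Sham and 35.3 and 40.7 CPM in ADX, without overlap and without passing a test (edgeR adjusted p = 0.475, DESeq2 adjusted p = 0.421). A match of letters does not show that the site is bound in these cells.

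The receptor overlapped between the groups, and most of its partners had lower values in ADX. Nr3c1, on chromosome 18, stood at 671 and 365 CPM in Sham and 367 and 537 CPM in ADX (log2 fold change −0.20, SE 0.36, edgeR adjusted p = 0.863), and its log2 fold change was 0.27 without Sham replicate 1. Of 13 tested receptors, chaperones and enzymes of corticosteroid action, 10 had a lower value, in 8 without overlap, and DESeq2 called 3 lower. Hsd11b1, the enzyme that regenerates active corticosterone inside cells, stood at 230.4 and 305 CPM in Sham and 81.6 and 78.5 CPM in ADX (log2 fold change −1.74, SE 0.31, DESeq2 adjusted p = 0.000677, edgeR adjusted p = 0.157). H6pd, which supplies the cofactor of that enzyme, stood at 51.5 and 26.1 CPM in Sham and 17.4 and 13 CPM in ADX. Stip1, a co-chaperone that loads GR onto Hsp90, stood at 128 and 114 CPM in Sham and 61 and 34.6 CPM in ADX. Hsd11b2, which inactivates corticosterone, did not pass the filter on low counts.

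Gas6 had higher values and most of its partners lower ones, some of them with overlapping groups. Gas6, a secreted protein that binds and activates the TAM receptor kinases Tyro3, Axl and Mertk, stood at 139 and 158 CPM in Sham and 454 and 633 CPM in ADX (log2 fold change 1.87, SE 0.38). Both ADX libraries lay far above both Sham libraries, and the gene was called by DESeq2 (adjusted p = 0.00033) but not by edgeR (0.183). Pros1, the related ligand protein S, stood at 175 and 254 CPM in Sham and 98.5 and 104 CPM in ADX (log2 fold change −1.08, edgeR adjusted p = 0.242). The receptor Axl stood at 505 and 334 CPM in Sham and 189 and 233 CPM in ADX (log2 fold change −0.99, edgeR adjusted p = 0.325). Neither of these passed in DESeq2. The other receptors overlapped between the groups. Mertk stood at 15.6 and 17 CPM in Sham and 15.8 and 9.26 CPM in ADX. Tyro3 stood at 14.8 and 11.35 CPM in Sham and 5.28 and 15.9 CPM in ADX. Of the 8 genes on the list, 2 had a higher and 6 a lower value, 2 and 3 of them without overlap (against 18.2% and 24.9% of protein-coding genes).

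Clock genes had values in both directions. Of 19 genes, 9 were higher and 10 lower, and the sign of their median (−0.07) changed with a replicate block, with protein-coding genes alone and without Sham replicate 1 (0.24). DESeq2 called 2 higher (Per3 and Tef) and 2 lower (Arntl and Bhlhe40, the latter named after its value was seen). Arntl, which encodes the activator BMAL1, stood at 33.1 and 72.2 CPM in Sham and 14.6 and 7.38 CPM in ADX (log2 fold change −2.26, DESeq2 adjusted p = 0.00255, edgeR adjusted p = 0.183). Rora, an activator of Arntl, stood at 136 and 154 CPM in Sham and 57.1 and 73.6 CPM in ADX. Per3, a repressor whose level is opposite in phase to that of Arntl, stood at 27.3 and 15.4 CPM in Sham and 73.9 and 61.8 CPM in ADX (log2 fold change 1.67, DESeq2 adjusted p = 0.00880). Tef, an output factor, stood at 82.2 and 75.2 CPM in Sham and 149.8 and 173 CPM in ADX (log2 fold change 1.04, DESeq2 adjusted p = 0.0293). The Sham replicates were unlike in Nr1d1 (206.5 and 23.6 CPM) and Dbp (80.8 and 10.6 CPM), clock genes named after their values were seen. ADX stood at 101 and 115.5 CPM for Nr1d1 and 96.4 and 121 CPM for Dbp. For Rora and Tef the Sham replicates lay close together. The labels give no hour of collection, so time of day and surgery cannot be told apart.

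Genes of acute stimulation mostly had lower values. Of 24 immediate early genes, 23 had a lower value and 19 had both ADX libraries below both Sham libraries, with a median of −0.79 (−0.72 to −0.90 when a library was left out). DESeq2 called 4 and edgeR none. Egr1, a zinc finger factor, stood at 2661 and 2420 CPM in Sham and 942 and 1391 CPM in ADX, and Nr4a1, an orphan nuclear receptor, at 576 and 716 CPM in Sham and 264 and 297 CPM in ADX. Btg2, an antiproliferative gene, stood at 1120 and 885 CPM in Sham and 373 and 402 CPM in ADX, and Socs3, a feedback inhibitor of cytokine signalling, at 1108 and 908 CPM in Sham and 272 and 515 CPM in ADX. All 4 genes lay below both Sham libraries in Control and GR KO as well, with Socs3 at 141 and 188 CPM in Control. Of 12 heat shock genes, 10 had a lower value, 4 of them without overlap (against 24.9% of protein-coding genes), and none was called by either tool. Such genes are known to respond to tissue dissociation, and its part in these values was not tested.

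Genes of lipid synthesis and protein folding had lower values. All 28 genes of cholesterol and fatty acid synthesis had a lower value in ADX, in 14 without overlap, and the median was −0.69, or −0.42 without Sham replicate 1. DESeq2 called 1, Fdps, which makes farnesyl diphosphate in the mevalonate pathway and stood at 178 and 152 CPM in Sham and 48.5 and 52.7 CPM in ADX (log2 fold change −1.70, DESeq2 adjusted p = 0.00205, edgeR adjusted p = 0.181). Hmgcs1, the first enzyme of that pathway, stood at 134 and 132 CPM in Sham and 65.2 and 74.6 CPM in ADX, and Sqle, which makes squalene epoxide, at 101 and 76.9 CPM in Sham and 42.1 and 43.7 CPM in ADX. Markers of sebocytes, a lipid-making cell type of the skin, had a lower value in 6 of 8 genes, 4 without overlap, with a median of −1.01 and a summed level of 354 and 329 CPM in Sham and 117 and 219.8 CPM in ADX. Their part in the lower values of lipid synthesis was not tested. Of 16 genes of the endoplasmic reticulum stress response, 14 had a lower value, and 9 were without overlap. The chaperone Hspa5 stood at 826 and 719 CPM in Sham and 298 and 424 CPM in ADX (DESeq2 adjusted p = 0.0398, edgeR adjusted p = 0.240).

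Signals by which the papilla addresses stem cells had medians near that of all genes, apart from the BMP list, the TGF-beta list and the list of IGF and PDGF signals. The median of the IGF and PDGF list was −0.41, or −0.01 without ADX replicate 2. Of its 18 members, 4 had both ADX libraries above and 7 had both below the Sham libraries. Members with both ADX libraries above and with both below the Sham libraries numbered 1 and 5 of 17 for BMP, 4 and 4 of 19 for FGF, 3 and 6 of 29 for WNT, 1 and 4 of 16 for TGF-beta, 1 and 3 of 11 for hedgehog and 4 and 3 of 14 for Notch, against 18.2% and 24.9% of protein-coding genes. For the BMP, FGF, WNT, TGF-beta, hedgehog and Notch lists the medians were −0.43, 0.04, −0.13, −0.31, −0.14 and −0.03. Those of the FGF, WNT, hedgehog and Notch lists changed sign when protein-coding genes were scaled alone or a library was left out. The BMP median was −0.19 without ADX replicate 2 and −0.79 without ADX replicate 1. The TGF-beta median was −0.05 without Sham replicate 1 and −0.60 without Sham replicate 2. None of the genes on the BMP, FGF, WNT, TGF-beta, hedgehog and Notch lists passed in edgeR. DESeq2 called 3 lower ones, the WNT inhibitor Sfrp2, the TGF-beta binding protein Ltbp4 and Gas1, a surface coreceptor of hedgehog. Sfrp2 stood at 306 and 291 CPM in Sham and 39 and 76.8 CPM in ADX (log2 fold change −2.36, DESeq2 adjusted p = 7.57e-05), and Gas1 at 737 and 873 CPM in Sham and 212 and 270.2 CPM in ADX (log2 fold change −1.74, DESeq2 adjusted p = 0.00033). It called 1 higher, the WNT inhibitor Dkk1, at 0.784 and 0.161 CPM in Sham and 12.7 and 1.99 CPM in ADX (DESeq2 adjusted p = 0.0491), for which ADX replicate 1 was far above replicate 2.

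Several single ligands and targets are known from the hair cycle. Bmp2 stood at 103 and 65.8 CPM in Sham and 32.1 and 36.3 CPM in ADX (log2 fold change −1.30), Sostdc1, a BMP and WNT antagonist, at 167 and 45.5 CPM in Sham and 18.8 and 28.2 CPM in ADX, and Dkk2, a WNT antagonist, at 1798 and 1225 CPM in Sham and 557 and 1078 CPM in ADX. Fgf10 is given above, and Fgf5, which ends the growth phase of hair, had 2 reads in Sham and 35 in ADX, a ratio of 26.6 (95% counting interval 6.83 to 228). Hey1, a Notch target, stood at 2.18 and 4.03 CPM in Sham and 8.89 and 13.5 CPM in ADX, and Gli1, a hedgehog target, at 42.2 and 19.4 CPM in Sham and 49.2 and 53.9 CPM in ADX. None of these passed in edgeR, and none with a DESeq2 adjusted p (all but Fgf5) passed in DESeq2. Igfbp6, a binding protein for IGF2, was called lower by DESeq2 (adjusted p = 0.00209) at 602 and 687 CPM in Sham and 183 and 278 CPM in ADX. Pdgfa, a growth factor for dermal cells, was called higher by DESeq2 (adjusted p = 0.0330) at 6.36 and 5.39 CPM in Sham and 38.2 and 13.7 CPM in ADX.

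Matrix genes mostly had lower values. Of 36 matrix proteins, proteases and inhibitors, 30 had a lower value, 21 without overlap, with a median of −0.76 (−0.94 to −0.63 when a library was left out). DESeq2 called 2, Mmp3 and Postn, the matricellular protein periostin, which stood at 2426 and 4273 CPM in Sham and 1267 and 871 CPM in ADX (log2 fold change −1.65, DESeq2 adjusted p = 0.0116, edgeR adjusted p = 0.229). Mmp2, a gelatinase, stood at 1235 and 1025 CPM in Sham and 392.4 and 636 CPM in ADX, and Timp2, an inhibitor of metalloproteases, at 814 and 885 CPM in Sham and 460.5 and 428 CPM in ADX. Of 24 collagens, 16 had a lower and 8 a higher value, with a median of −0.29. Col4a1 of the basement membrane stood at 693 and 607 CPM in Sham and 418 and 387 CPM in ADX (log2 fold change −0.69). The interferon list had 18 of 24 genes lower, 14 without overlap, with a median of −0.63 and none called by either tool.

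Cell division and ribosomal genes had higher values. All 25 genes of mitosis had a higher value, 9 without overlap (against 18.2% of protein-coding genes), and DESeq2 called 3. Their summed level was 57.1 and 103 CPM in Sham and 386 and 147 CPM in ADX, and the median of 1.67 was 0.20 without ADX replicate 1. Mki67, the proliferation antigen Ki-67, stood at 0 and 1.85 CPM in Sham and 30.4 and 9.96 CPM in ADX, and Cdc20, an activator of the anaphase-promoting complex, at 1.13 and 0.725 CPM in Sham and 20.3 and 3.52 CPM in ADX. In both genes ADX replicate 1 was the highest of the 4. Genes of DNA replication had a median of 0.08, which was −0.48 without ADX replicate 1. Of 85 cytoplasmic ribosomal proteins, 80 had a higher value and 68 had both ADX libraries above both Sham libraries, with none called. Their median was 0.40, and it was 0.32 to 0.54 under the other settings. Rpl39 stood at 54.4 and 48.1 CPM in Sham and 101 and 92.8 CPM in ADX (log2 fold change 0.92). Ribosomal protein genes have many processed copies in the genome, so their counts are uncertain.

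**Figure D4:**
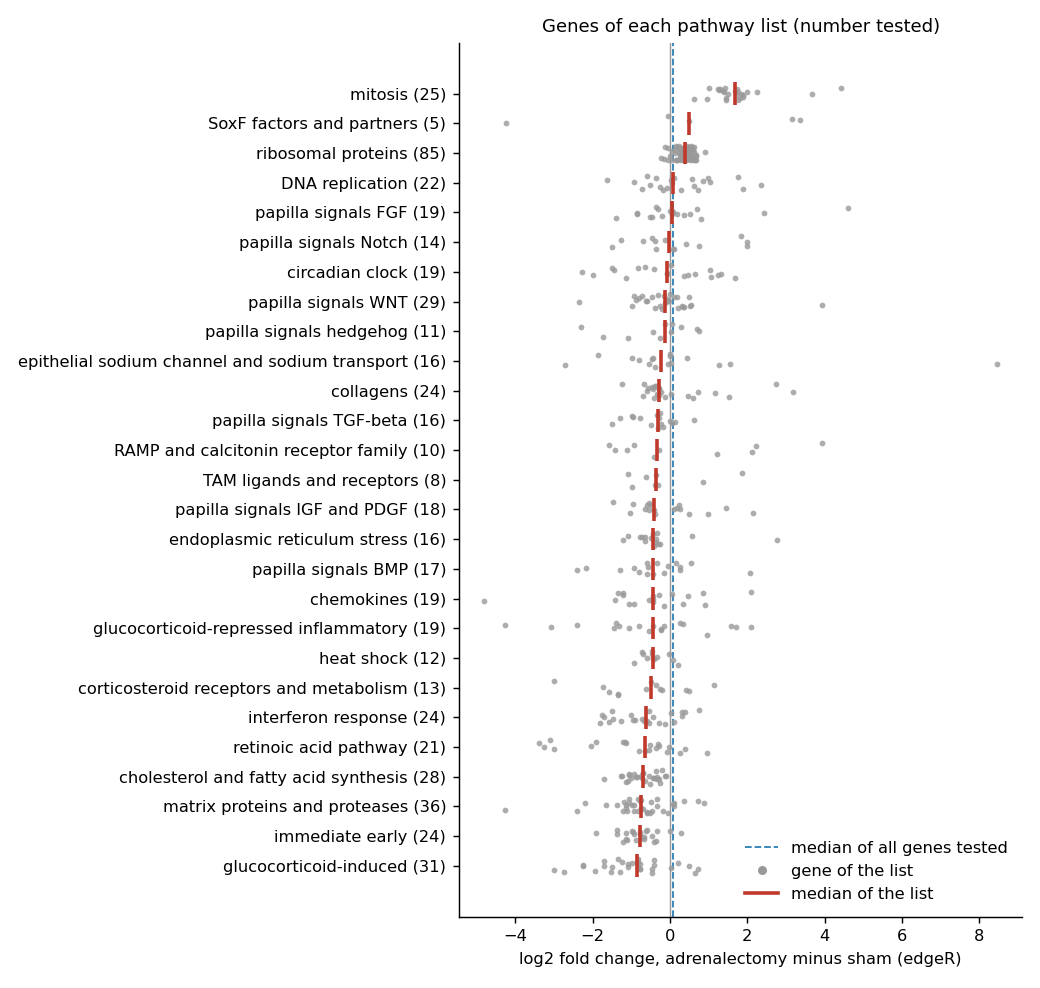
Log2 fold change after adrenalectomy (horizontal axis, edgeR) of every tested gene on 27 pathway lists, 1 grey point a gene, with the median of each list as a red bar and the median of all genes as a dashed line at 0.08. Lists are ordered by median, from −0.86 for glucocorticoid-induced genes at the bottom to 1.67 for mitosis at the top.

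Markers of other cell types had unequal levels. The list of pericyte, smooth muscle and dermal sheath markers had 13 of 16 genes higher, 12 without overlap, and a median of 2.99, or 0.79 without ADX replicate 1. Its summed level was 585 and 679.8 CPM in Sham and 7785 and 1398 CPM in ADX, and 13040 and 3639 CPM in Control and 9638 and 4569 CPM in GR KO, so that Sham was the low group. Acta2, smooth muscle alpha actin, stood at 103 and 133 CPM in Sham and 3425 and 556 CPM in ADX (DESeq2 adjusted p = 0.00967, edgeR adjusted p = 0.196), and Tagln at 20.6 and 66.9 CPM in Sham and 1017 and 158 CPM in ADX. DESeq2 called 4 of the list. Cnn1 and Actg2 above are members of this list, and the skeletal muscle list (summed level 29.2 and 39 CPM in Sham and 216 and 44.2 CPM in ADX) shared its high value in ADX replicate 1. The part of these cells in the results on Cnn1, Actg2 and Col11a1 was not tested.

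Epithelial markers went the other way. Of 16 tested markers of the differentiated epidermis, 15 had a lower value in ADX, 13 without overlap, with a median of −2.67 (−1.72 without Sham replicate 2). Their summed level was 1798 and 6316 CPM in Sham and 745 and 386 CPM in ADX, highest in Sham replicate 2. Ivl, which encodes the cornified envelope protein involucrin, stood at 23.5 and 81.5 CPM in Sham and 6.12 and 2.23 CPM in ADX (DESeq2 adjusted p = 0.000436, edgeR adjusted p = 0.201), and Lor, loricrin, at 26.7 and 17.6 CPM in Sham and 5.14 and 3.87 CPM in ADX. Basal and bulge keratinocyte markers summed to 606 and 1683 CPM in Sham and 389 and 231 CPM in ADX, with Krt14 at 56.8 and 100.1 CPM in Sham and 25.4 and 11 CPM in ADX. The part of epithelial cells in the lower values of Scnn1a and Aldh1a1 was not tested.

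Dermal fibroblast markers summed to 29950 and 37680 CPM in Sham and 22230 and 21230 CPM in ADX, with 16 of 18 genes lower and a median of −0.58 (−0.37 without Sham replicate 2, −0.92 without ADX replicate 2). Dcn, the proteoglycan decorin of fibroblasts, stood at 8730 and 9031 CPM in Sham and 2998 and 4640 CPM in ADX. Endothelial markers summed to 518 and 395 CPM in Sham and 269 and 286 CPM in ADX, with 11 of 15 lower. Cldn5, a junction protein of endothelium, stood at 10.4 and 11 CPM in Sham and 2.50 and 0.586 CPM in ADX. Lymphatic endothelial markers summed to 55.5 and 35.7 CPM in Sham and 36.8 and 58.9 CPM in ADX, with 4 of 7 higher and a median of 0.57 that changed sign without Sham replicate 2 or ADX replicate 1. Immune cell markers summed to 357 and 424 CPM in Sham and 484 and 503 CPM in ADX, with 14 of 18 higher and none called by either tool. Lists with low summed levels had the medians 1.54 for melanocytes (summed level 79.1 and 78.5 CPM in Sham and 101 and 57.2 CPM in ADX), 1.36 for hair matrix and shaft (21.1 and 12.9 CPM in Sham and 38.1 and 39.1 CPM in ADX), 1.02 for Schwann cells (105 and 152 CPM in Sham and 178 and 148 CPM in ADX), 0.95 for red blood cells (12.5 and 156 CPM in Sham and 132 and 106 CPM in ADX) and −0.03 for adipocytes (51 and 85.2 CPM in Sham and 75.7 and 67 CPM in ADX). None of their genes was called by either tool.

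**Figure D5:**
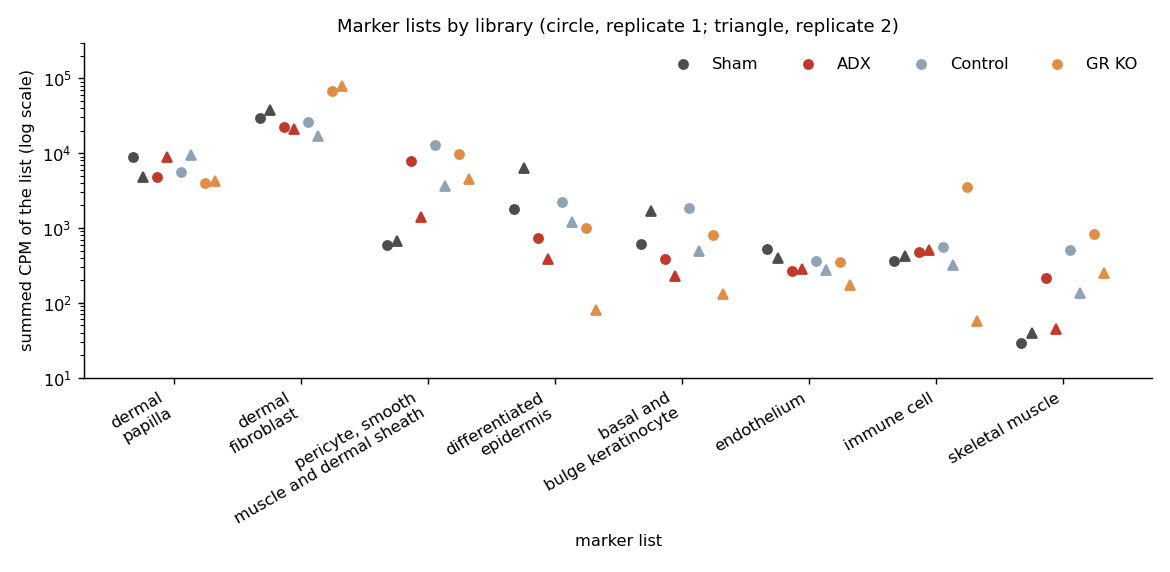
Summed CPM of 8 marker lists (vertical axis, log scale) in each of the 8 dermal papilla libraries, with circles for replicate 1 and triangles for replicate 2. Pericyte, smooth muscle and dermal sheath markers are lowest in both Sham libraries, and markers of the differentiated epidermis are lower in both ADX libraries than in both Sham libraries, whereas the dermal papilla list overlaps between the groups.

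Whether the change after adrenalectomy differed from that after GR deletion was tested as a difference of differences in edgeR. It passed for 112 genes (0.477% of those tested), 30 with a more positive and 82 with a more negative change after adrenalectomy, or 45 and 46 of 91 with median-of-ratios scaling and 122 and 75 of 197 with protein-coding genes alone. The count was 3 without Sham replicate 2 and 3 without Control replicate 2, and 19 to 221 without any other single library. The targeted gene Nr3c1 stood at 671 and 978 CPM in Control and 137 and 111 CPM in GR KO (log2 fold change −2.73, SE 0.38, edgeR adjusted p = 0.0212). Strain and tamoxifen differ between both experiments and cannot be told apart from this difference.

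Of the 24 genes named by p, 13 were among the 112, against 0.477% of all genes tested. The 24 were chosen by their change between Sham and ADX, which is a part of this difference. The choice itself thus favoured a high count, and nothing is concluded from it. Sox18 was not among the 112. It stood at 20.9 and 26.3 CPM in Control and 134 and 118 CPM in GR KO, and its difference was 0.95 (SE 0.38, edgeR adjusted p = 0.263). Ramp3 stood at 77.9 and 113 CPM in Control and 33.4 and 45.6 CPM in GR KO (log2 fold change −1.27), which gave a difference of 5.19 (SE 0.51, edgeR adjusted p = 0.0156). Scnn1g stood at 17.6 and 26.8 CPM in Control and 2.35 and 3.17 CPM in GR KO. Its difference of 11.45 (edgeR adjusted p = 0.0156) is a fitted value that depends on the near absence of reads in Sham. Aldh1a1 stood at 32.5 and 26.2 CPM in Control and 49 and 40.4 CPM in GR KO, with a difference of −4.0 (SE 0.48, edgeR adjusted p = 0.0245). Without Sham replicate 2 the edgeR adjusted p was 0.0796 for Ramp3 and 0.0822 for Aldh1a1. The difference of Aldh1a1 also missed the threshold without Control replicate 1 (0.0515) or Control replicate 2 (0.112).

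Of the 12 lower genes, 9 had a log2 fold change above 0 after GR deletion. So had 13225 of all 23463 genes tested, and the median of protein-coding genes after GR deletion was 0.20. Mfap5 stood at 226 and 190.5 CPM in Control and 677 and 431 CPM in GR KO, a difference of −3.31 (SE 0.44, edgeR adjusted p = 0.0245). Gpnmb had a difference of −3.85 (edgeR adjusted p = 0.0342) and Fzd1 one of −2.23 (edgeR adjusted p = 0.0349). Among listed matrix genes, Postn stood at 267 and 411 CPM in Control and 1898 and 3103 CPM in GR KO, with a difference of −4.53 (SE 0.58, edgeR adjusted p = 0.0245), and Timp2 had a difference of −2.44 (edgeR adjusted p = 0.0349). Fdps, Sqle, Hmgcs1 and Cyp51 were the 4 genes of cholesterol synthesis with a difference, of −2.58, −2.74, −3.23 and −2.96 (edgeR adjusted p = 0.0245 to 0.0408). Pros1 had a difference of −2.47 (edgeR adjusted p = 0.0359), whereas that of Gas6 was 0.30 (SE 0.52, edgeR adjusted p = 0.864). The retinoid list held 1 gene with a difference, Aldh1a1, and the immediate early and clock lists none. Without Sham replicate 2 or without Control replicate 2, 3 genes of all tested passed in each case, and of the genes in this paragraph none did. Without ADX replicate 2 the differences of Postn, Mfap5, Gpnmb, Fzd1, Timp2, Pros1, Fdps, Sqle, Hmgcs1 and Cyp51 missed the threshold as well.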

How the data were processed

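RNA of sorted mouse dermal papilla cells was made into SMART-Seq v4 and Nextera XT libraries, per the labels' protocols. These kits do not mark strand, so overlapping and antisense genes cannot be told apart. The authors deposited estimated counts per transcript from Salmon and used DESeq2 1.22.2 and mm10, per the submitters' processing notes; the annotation is not given in the sources used here. Of 134967 transcripts, 150 had no match in GENCODE vM21 and held at most 0.0752% of a library's counts. The others were summed to 52958 gene symbols and rounded to whole numbers. Genes were tested with edgeR 4.0.16 in R 4.3.3 (TMM scaling, filterByExpr, a quasi-likelihood fit of the 8 dermal papilla libraries with a mean per group, Benjamini-Hochberg adjustment), which left 4 residual degrees of freedom and gave a biological coefficient of variation of 54%. CPM were computed on TMM-scaled library sizes. The SE of a log2 fold change is its size divided by the square root of F. DESeq2 1.42.0 was an alternative. The scripts were tested on simulated counts. Confidence intervals of read ratios are exact, at 95%.

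Named were all genes past the threshold, up to 12 per direction by p (protein-coding, at least 5 CPM, no overlap, no predicted genes), Per1, Zbtb16, Tsc22d3, Fkbp5, Nr3c1, Axl and Gas6, up to 4 per list by p, short lists holding a called gene in full, and up to 5 per sign for the difference from GR deletion. Members and lists were chosen with earlier results of these data known. Promoters are from RefSeq on GRCm38.p6; GC and CCAAT boxes were added as motifs after seeing the data. Hair follicle stem cell libraries were not used.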

Additional observations from a re-analysis of the deposited data

Results flagged for a closer look

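For 31 named genes the change after adrenalectomy differed from that after GR deletion in edgeR's test of the difference itself, with the value given as the log2 change of ADX against Sham minus that of GR KO against Control. The difference was positive for Ramp3 (5.19), Scnn1g (11.45), Matn1 (11.16), Rgs3 (3.23), Angptl4 (2.90), Sncb (6.40) and Ackr4 (2.58). It was negative for Aldh1a1 (−4.0), Cpq (−3.06), Mfap5 (−3.31), Postn (−4.53), Ivns1abp (−3.25), Dse (−3.05), Hmgcs1 (−3.23), Cd34 (−3.24), Cyp51 (−2.96), Gpnmb (−3.85), Serpina3n (−4.78), Sqle (−2.74) and Timp2 (−2.44). It was also negative for Ms4a4d (−2.86), Dpep1 (−2.65), Fzd1 (−2.23), Calcrl (−2.86), Pros1 (−2.47), Mmp2 (−2.74), Fdps (−2.58), Efemp1 (−2.93), Ugt1a6a (−2.95), Hspa5 (−2.25) and Ptgs2 (−8.48). Rgs3 is a regulator of G protein signalling and stood at 91.1 and 73.1 CPM in Sham and 175 and 269 CPM in ADX, and at 195 and 302 CPM in Control and 76.1 and 66.8 CPM in GR KO. Dse, an epimerase that makes dermatan sulfate, stood at 83.7 and 78.2 CPM in Sham and 35.2 and 45.8 CPM in ADX, and at 39.6 and 34.6 CPM in Control and 159.8 and 147 CPM in GR KO. Cpq, a carboxypeptidase of plasma, stood at 95.7 and 143 CPM in Sham and 49.3 and 50.7 CPM in ADX, and at 54.6 and 55.9 CPM in Control and 185 and 203 CPM in GR KO. Ivns1abp, which encodes a kelch protein, stood at 144 and 163 CPM in Sham and 75.7 and 58.6 CPM in ADX, and at 40.6 and 44.5 CPM in Control and 147 and 207 CPM in GR KO. When a library was left out, 1 of the 31 genes passed without Sham replicate 2 (Scnn1g), 2 without Control replicate 2 (Ramp3 and Scnn1g), 5 without ADX replicate 2, 9 without Control replicate 1, 20 without Sham replicate 1, 22 without ADX replicate 1, 24 without GR KO replicate 1 and 29 without GR KO replicate 2. The edgeR adjusted p of the genes that did not pass without Sham replicate 2 was 0.0796 to 0.0973, and without Control replicate 2 it was 0.0592 to 0.219.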

How the results depend on the processing

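The 4 genes called after adrenalectomy were 453 with DESeq2, 894 with no filter on low counts, 10 with a block for replicate numbers, and 0 when the Sham and ADX libraries were fitted alone, which had 1738 genes at an unadjusted p under 0.05 in edgeR. They were 4 with median-of-ratios scaling and with protein-coding genes alone, and 1 to 12 when a library was left out (1 without Sham replicate 2, 12 without ADX replicate 2). The 112 genes with a difference from GR deletion were 1051 with DESeq2, 1305 with no filter, 196 with the block, 197 with protein-coding genes alone and 3 to 221 when a library was left out. The split of the 112, 30 more positive and 82 more negative, was 45 and 46 with median-of-ratios scaling and 122 and 75 with protein-coding genes alone, which changes the genes tested and the scaling together. The cause was not tested.

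Whether the replicate numbers pair the libraries cannot be settled with 2 libraries per group. Same-numbered Sham and ADX libraries had deviations correlated at −0.186 and other pairs of groups at −0.0672 to 0.290, and the block or pairing changed the count to 10, whereas the crossed pairing, chosen after seeing the data, gave 4. Among the values of single named genes, DESeq2 brought 58 and no filter 78 past the threshold. Direction turned for Sox17 (−8.32 to 4.02 when a library was left out, 4.02 without Sham replicate 1), Mef2c (−0.38 to 1.07, −0.38 without ADX replicate 1), Angptl4 (−0.12 to 0.43, −0.12 without ADX replicate 2) and Nr3c1 (−0.62 to 0.27, 0.27 without Sham replicate 1), none of them called. With 2 libraries per group, a library left out leaves an arm of 1, which is assumed to vary like the other groups, and the lower depth of ADX limits genes of low counts.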
